A study of Mus musculus with 12 samples.

Results

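The genes described here carry fatty acids through the cell and break them down in mitochondria. They are Fabp3, Cpt1a, Cpt2, Acadm, Acadl, Acadvl, Hadha, Hadhb and Pdk4, 9 genes chosen by name with earlier results of these data known. RNA was measured on Illumina expression arrays in 12 samples of mouse pancreatic islet cells sorted as beta cells, the cells that make insulin. There were 4 samples of the late embryonic stage E18.5, 3 of postnatal day 1 (P1), 2 of postnatal day 10 (P10) and 3 of adults of 5 weeks. All mice were heterozygous for a green fluorescent protein transgene under the promoter of Pdx1, a pancreatic transcription factor, and came from a cross with ICR mice. Islets were dissociated with trypsin and the fluorescent cells sorted. The Pdx1 promoter is also active in some delta cells and, before birth, in pancreatic progenitors, so the sort marks the promoter and not beta cells alone. A probe was named for 8 of the 9 genes. The brightest probe per gene was kept where it lay above background on at least 2 arrays, which left 7 genes among the 9806 tested.

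Fatty acids are bound in the cytosol by small carrier proteins and activated as esters of coenzyme A. Carnitine palmitoyltransferases at the outer and inner mitochondrial membranes hand the acyl chain to carnitine and back, which brings it into the matrix. There the chain is shortened step by step by acyl-CoA dehydrogenases of different chain length preference and by the trifunctional protein, giving acetyl-CoA. Newborn mice pass from glucose supplied through the placenta to milk rich in fat, and adult beta cells respond mainly to glucose.

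Of 13 beta cell markers, 12 had a named probe. Their mean log2 level per sample was 9.11 to 9.32 at E18.5 and 9.06 to 9.26 at P1. It was 9.66 to 9.74 at P10 and 9.78 to 9.93 in adults. Markers of other cell types were detected as well. The 21 measured of 25 acinar markers, which encode digestive enzymes, averaged log2 levels of 4.93 to 6.56 at E18.5, 5.44 to 7.73 at P1, 9.71 to 11.2 at P10 and 10.4 to 11.8 in adults. Their summed intensity lay between 36017 and 100021 in adults and between 1001 and 3785 at E18.5. For alpha, delta, epsilon and PP cells, the 8 measured of 9 markers averaged between 8.70 and 11.1 over all samples. Fewer cells of a type and less RNA per cell cannot be told apart in such samples. Between 42.5% and 50.6% of the probes on an array lay above background. The labels do not say whether replicates came from separate animals or litters. The p-values therefore reflect the spread among these 12 samples, which may be technical, and the number of arrays limits the precision.

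Below, an intensity is the deposited linear probe signal. A level is its log2 value after background correction and quantile normalization, and a difference is later minus earlier age in log2 units ± standard error. Adjusted p-values come from limma over all 9806 genes, with a threshold of 0.05. Levels of different probes are not set against each other.

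Of the 7 measured genes Fabp3 varied most over the ages. It encodes the heart-type fatty acid binding protein, a cytosolic carrier of long chain fatty acids. Its intensity was 151.1, 137.1, 156.3 and 135.4 in the E18.5 samples, 249.3, 346.0 and 467.5 at P1, 192.5 and 171.7 at P10, and 104.0, 115.2 and 85.8 in adults. The 3 P1 samples were the highest and the 3 adult samples the lowest, and no pair of ages overlapped. Fabp3 rose at P1 against E18.5 by 1.38 ± 0.18, a 2.61-fold difference with a 95% interval of 2.00 to 3.41 (adjusted p = 0.0029, limma). It fell at P10 against P1, by 0.97 ± 0.22 (adjusted p = 0.0096, limma), and again in adults against P10, by 0.94 ± 0.22 (adjusted p = 0.010, limma). Both later calls rest on a P10 group of 2 samples. Without P10 replicate 1 the adjusted p was 0.053 for P10 against P1 and 0.097 for adults against P10. Without P10 replicate 2 these were 0.095 and 0.051.

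The adult level of Fabp3 was 3.76-fold below that at P1 (difference -1.91 ± 0.19, adjusted p = 3.5e-06, limma). It also lay below that at E18.5, by a smaller difference of -0.53 ± 0.18 (adjusted p = 0.032, limma). That last comparison no longer passed when E18.5 replicate 1 or 3 or adult replicate 1 or 3 was left out (adjusted p from 0.053 to 0.15), with the larger background offset of 50 and with the replicate number as a block. The order of the levels was P1, P10, E18.5 and adult, high to low. P10 against E18.5 did not pass (0.41 ± 0.20, 95% interval -0.023 to 0.85, adjusted p = 0.20, limma), although it passed at 0.045 with only these ages in the fit. With the acinar marker mean as an added term it stood at -0.66 ± 0.40 (adjusted p = 0.65, limma), so the order of these 2 ages is not settled.

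**Figure D1:**
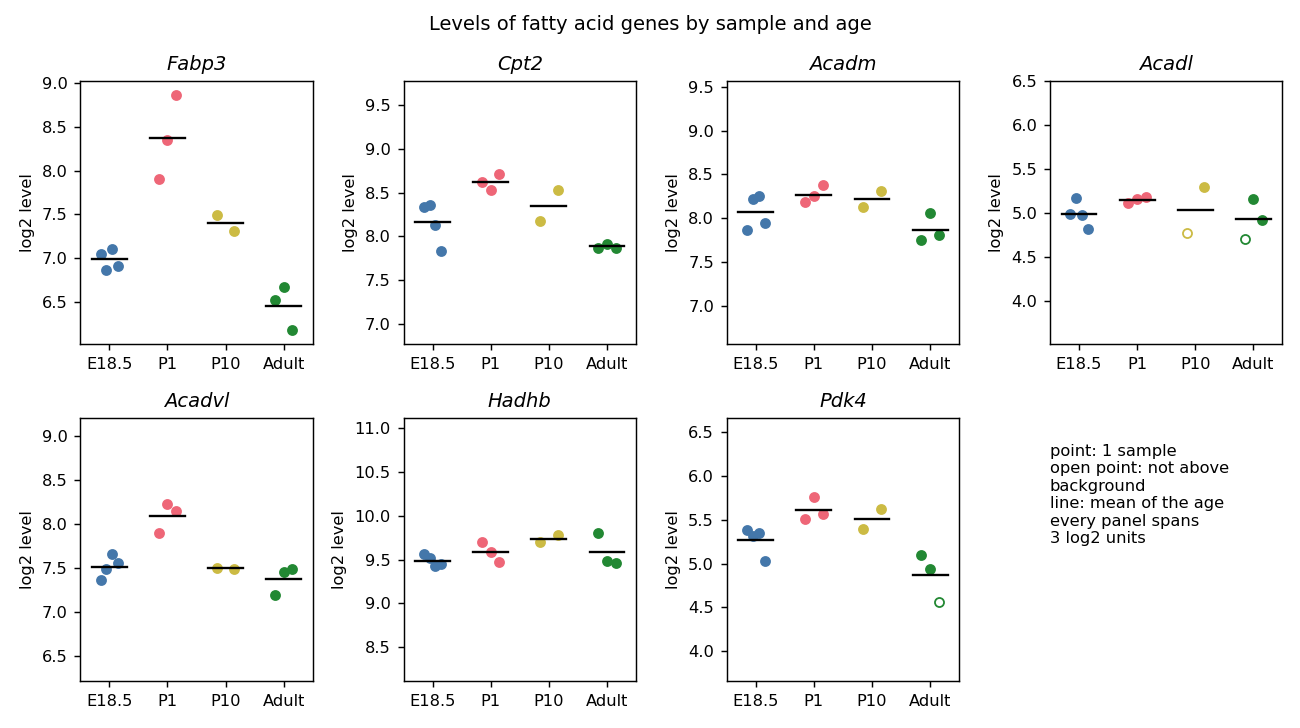
Each panel plots the log2 level of 1 gene (vertical axis, spanning 3 log2 units in every panel) against age, with a point per sample, open where the probe was not above background, and a line at the mean of each age. Fabp3 reaches levels of 7.90 to 8.86 at P1, above all its other samples, while the Hadhb points stay between 9.43 and 9.81 at all ages.

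Carnitine palmitoyltransferases come next on the path. Cpt1a encodes the enzyme of the outer membrane that commits long chain fatty acids to oxidation and is inhibited by malonyl-CoA. Its only named probe was above background on 0 of 12 arrays, with intensities from 31.6 to 41.6, while the limits of these arrays lay between 38.9 and 46.5. Cpt1a was therefore not tested, and the values say only that it was not detectable with this probe. Acadl, the dimmest member kept, was above background on 10 of 12 arrays.

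Cpt2 encodes the enzyme of the inner membrane that returns the chain to coenzyme A. Its intensity was 367.8, 352.8, 298.1 and 245.5 at E18.5, 404.8, 391.9 and 427.8 at P1, 299.6 and 370.0 at P10, and 242.9, 248.7 and 242.6 in adults. The P1 samples lay above all others and the adult samples close together at the low end, where E18.5 replicate 4 also stood. Adults lay below P1, by a difference of -0.73 ± 0.14, or 1.66-fold (adjusted p = 0.00094, limma). The difference of P1 against E18.5 was 0.46 ± 0.13 and did not pass (adjusted p = 0.061, limma), although it passed in 3 other settings, with adjusted p down to 0.038. P10 against P1 (-0.27 ± 0.16), adults against P10 (-0.46 ± 0.16) and adults against E18.5 (-0.28 ± 0.13) did not pass either, so neighbours in the order P1, P10, E18.5 and adult were not separated. Adults against P10 passed without E18.5 replicate 4 (adjusted p = 0.036, limma), and adults against E18.5 passed in 4 other settings, that sample left out among them.

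Acyl-CoA dehydrogenases carry out the first step of each round of oxidation. Acadvl encodes the very long chain enzyme, which acts at the inner membrane. Its intensity was 187.7, 200.2, 218.7 and 204.1 at E18.5, 248.0, 319.2 and 294.8 at P1, 193.3 and 190.5 at P10, and 155.0, 186.6 and 190.3 in adults. The P1 samples all stood above the other 3 ages. P10 samples lay only just above all adult samples, with intensities of 190.5 and 190.3 where they came closest. Acadvl rose at P1 against E18.5 by 0.57 ± 0.12, or 1.49-fold with a 95% interval of 1.25 to 1.76 (adjusted p = 0.012, limma), and was 1.51-fold lower at P10 than at P1 (-0.59 ± 0.14, adjusted p = 0.012, limma). E18.5, P10 and adults were not separated by limma, with adults against P10 at -0.12 ± 0.14 and P10 against E18.5 at -0.02 ± 0.13.

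Without P1 replicate 2 the adjusted p of Acadvl was 0.084 for P1 against E18.5 and 0.053 for P10 against P1. For P10 against P1 it was 0.086 without P10 replicate 1 and 0.083 without P10 replicate 2. Adults lay below P1 by a difference of -0.71 ± 0.12 (adjusted p = 0.00042, limma), a call that held with each sample left out in turn.

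Acadm encodes the medium chain enzyme. Its brighter probe had intensities of 265.8, 324.1, 323.6 and 263.4 at E18.5, 301.4, 322.6 and 340.1 at P1, 291.3 and 321.6 at P10, and 224.4, 270.8 and 233.2 in adults. The first 3 ages overlapped. Adults lay below P1 by a difference of -0.40 ± 0.13, or 1.32-fold (adjusted p = 0.028, limma). It no longer passed when P1 replicate 2 or 3 or adult replicate 1 or 3 was left out (adjusted p from 0.062 to 0.095), and with array weights (0.058). A second, dimmer Acadm probe had its highest mean at P10, where it averaged 5.83, after 5.37 at E18.5 and 5.67 at P1 and before 5.51 in adults, and with the mean of both probes the adjusted p for adults against P1 was 0.18. The F-test over the 4 ages did not pass for Acadm (adjusted p = 0.087, limma), and passed where arrays were centred on their median or where deposited intensities were only logged (lowest adjusted p = 0.024).

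Acadl encodes the long chain enzyme and was close to background, with intensities from 42.3 to 50.3 at E18.5, 49.1 to 51.2 at P1, 42.4 to 54.5 at P10 and 42.4 to 50.7 in adults. It was above background in 1 of 2 P10 and 2 of 3 adult samples. All ages overlapped and no comparison passed. The difference of adults against P1 was -0.22 ± 0.15, with a 95% interval of -0.54 to 0.094. With 2 of the 12 Acadl samples not above background, this probe leaves little room below its P1 level, and a fall of the RNA cannot be judged from it. Of the other probes of Acadl, 1 was above background on 8 arrays and 1 on 0 arrays.

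The trifunctional protein completes the round for long chains. Hadhb encodes its beta subunit, a thiolase, and Hadha the alpha subunit, for which no probe is named here. The intensity of Hadhb was 863.2, 752.7, 696.3 and 741.5 at E18.5, 822.4, 801.6 and 714.4 at P1, 848.0 and 841.7 at P10, and 892.8, 711.0 and 697.0 in adults. Hadhb was the only one of the 7 whose mean was not highest at P1 and lowest in adults. It was highest at P10 and lowest at E18.5, and no comparison passed. Adults against P1 stood at -0.0033 ± 0.12, with a 95% interval of -0.25 to 0.24, so a shift as large as the -0.73 of Cpt2 lies outside that interval. In the RefSeq annotation of GRCm38.p6, Hadha and Hadhb start head to head on chromosome 5, with 272 bases between their starts.

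Pdk4 encodes a kinase that switches off pyruvate dehydrogenase, which spares glucose when fatty acids are burnt. Its intensity was 55.1, 54.9, 55.7 and 46.8 at E18.5, 59.8, 68.9 and 62.0 at P1, 56.7 and 64.1 at P10, and 49.2, 46.1 and 40.0 in adults. The P1 and P10 samples overlapped and lay above the other ages, and adult replicate 3 was not above background. In adults Pdk4 fell against P10 by 0.64 ± 0.16, or 1.56-fold (adjusted p = 0.018, limma), and against P1 by 0.75 ± 0.15 (adjusted p = 0.0011, limma). The call against P10 ended without P10 replicate 2 (adjusted p = 0.18), without adult replicate 3 (0.060) and with only both ages fitted (0.055).

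The adult level of Pdk4 was also below that at E18.5 (-0.41 ± 0.14, adjusted p = 0.029, limma), although adult replicate 1 lay above E18.5 replicate 4. It no longer passed when E18.5 replicate 1, 2 or 3 or adult replicate 3 was left out, with adjusted p from 0.060 to 0.16. Without adult replicate 3 the difference was -0.26. The probe is dim, and the size of its differences depends on the background treatment. Adults against E18.5 stood at -0.20 with an offset of 50 (adjusted p = 0.052, limma) and at -0.24 where intensities were only logged (0.070), so that the call ended in both. With an offset of 50, adults against P1 stood at -0.39 and adults against P10 at -0.33, and both still passed. At P1 the difference against E18.5 was 0.34 ± 0.14 and did not pass (adjusted p = 0.17, limma).

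**Figure D2:**
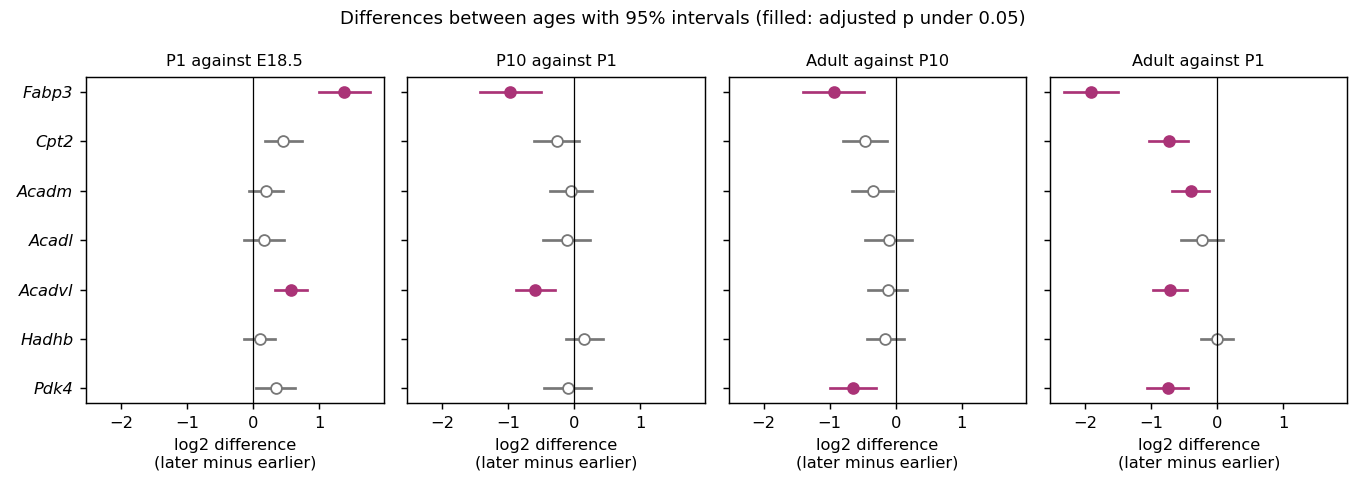
Points give the log2 difference, later minus earlier age, of the 7 measured genes in 4 comparisons, with lines for 95% intervals and filled points for an adjusted p under 0.05. At P1 all 7 points lie to the right of 0 and 2 are filled, and in adults against P1 all 7 lie to the left, Hadhb at -0.0033, and 5 are filled.

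Over the 7 genes, 2 rose at P1 against E18.5, Fabp3 and Acadvl, where 2.38% of all genes tested were called higher and 5.07% in either direction. The median of their differences was 0.34, against -0.0091 over all genes. All 7 differences were above 0, as were 48.3% of those of all genes. The smallest, which did not pass, were those of Hadhb at 0.097, Acadl, close to background, at 0.17 and Acadm at 0.20. In 4 of the 7, Fabp3, Cpt2, Acadvl and Pdk4, every P1 sample lay above every E18.5 sample, as for 9.79% of all genes. At P10 against P1, Fabp3 and Acadvl fell and the others did not pass, with 5.72% of all genes called lower and 10.9% in either direction. In adults against P10, Fabp3 and Pdk4 fell, with 6.81% of all genes called lower and 12.5% in either direction. Against P1, adults had 5 of the 7 genes lower and 0 higher, all but Acadl and Hadhb, where 18.7% of all genes were called lower. Of the 7 differences 0 were above 0 there, beside 49.2% of all genes. In adults against E18.5, Fabp3 and Pdk4 were lower, where 20.7% of all genes were. At P10 against E18.5 0 of 7 passed by limma, 0 of them at an unadjusted p under 0.05, against 15.3% of all genes called. These comparisons share samples, so their counts are not independent of one another. The genes were chosen with earlier results of these data known, so the shares of all genes beside them are description and no test.

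The F-test over the 4 ages passed for Fabp3, Cpt2, Acadvl and Pdk4, which is 4 of 7 beside 41.2% of all genes. The mean was highest at P1 and lowest in adults for 6 of the 7, a pattern that 13.5% of all genes had. Of all genes, 22.7% were highest at P1 and 34% lowest in adults. Among 94 other measured genes of fatty acid metabolism, 20 had the pattern of highest at P1 and lowest in adults. The 6 members with it include Acadl, close to background, and Acadm, whose dimmer probe was highest at P10. Since the members were chosen with earlier results of these data known, these shares test nothing. The split of all calls into higher and lower moved with the scaling. At P1 against E18.5 it was 233 higher and 264 lower, and 144 and 344 with median centring or 206 and 368 with the deposited values as log2. In adults it was 557 and 668 against P10, and 1726 and 2029 against E18.5, which became 380 and 825, and 1193 and 2655, with median centring. At P10 against E18.5 it was 730 and 773, and 562 and 989 with median centring. The 7 genes kept a difference above 0 at P1 under each of these scalings.

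The acinar mean of every P10 and adult sample lay above that of every E18.5 and P1 sample, and 20 of 21 acinar markers rose at P10 against P1, beside the falls of Fabp3 and Acadvl. Their part in these falls was not tested. A fit with the acinar mean as a term carries a slope found within ages across the gap between earlier and later ages, where no sample lies. At P1 against E18.5, 0 of 21 acinar markers passed by limma, with a median difference of 1.05, and within P1 the sample with the lowest acinar mean, 5.44, also had the lowest Fabp3 level, 7.90. The other P1 samples had acinar means of 6.70 and 7.73 and Fabp3 levels of 8.35 and 8.86. Endothelial markers averaged 5.14, 5.23 and 6.07 in P1 replicates 1, 2 and 3, and stromal markers 4.63, 4.73 and 5.92. Blood markers averaged 5.36, 5.58 and 5.94, so these lists also had the order of Fabp3. Means of beta cell, duct, other endocrine and adipocyte markers did not have it, and the part of any of these cells was not tested. The 4 E18.5 samples had acinar means of 6.56, 5.77, 4.93 and 5.08 and Fabp3 levels of 7.05, 6.87, 7.11 and 6.91. With the acinar mean as an added term, the Fabp3 differences were 1.16 at P1 against E18.5 (adjusted p = 0.0075, limma), -1.81 at P10 against P1 (0.027), -1.05 in adults against P10 (0.0021) and -2.87 in adults against P1 (0.00054). Other members lost calls under that term while their differences stayed close to or above the size without it, with wider errors between earlier and later ages. Acadvl stood at 0.54 ± 0.13 at P1 against E18.5 (adjusted p = 0.055, limma) and at -0.71 ± 0.27 at P10 against P1 (0.34). In adults against P1, Cpt2 stood at -0.90 ± 0.33, Acadm at -0.46 ± 0.31, Acadvl at -0.84 ± 0.29 and Pdk4 at -0.81 ± 0.35, with adjusted p between 0.14 and 0.50. Pdk4 kept its call in adults against P10 (0.027). Both calls in adults against E18.5 ended (Fabp3 -1.71 ± 0.43 at 0.073, Pdk4 -0.48 ± 0.41 at 0.66). The F-test over the ages passed with the term for Fabp3 (adjusted p = 4.6e-05, limma), Acadvl (0.013), Cpt2 (0.030) and Pdk4 (0.034).

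Markers of beta, duct and other endocrine cells also moved beside the falls in adults against P1. Of the 12 measured beta cell markers 6 were higher and 0 lower, with a median difference of 0.36. Of 6 measured duct markers 5 were lower, with a median difference of -0.48, and their mean level was 6.26 to 6.44 in adults and 6.63 to 6.86 at P1. Of the 8 markers of other endocrine cells 3 were lower and 1 was higher, with a median of -0.52. Adult replicate 3 had a mean of 8.70 for these, against 10.2 in both other adult samples, and was also the adult sample with the lowest Fabp3 and Pdk4 levels. Without that sample, Fabp3, Cpt2, Acadvl and Pdk4 still passed in adults against P1 and Acadm did not (adjusted p = 0.079, limma). The part of beta, duct and other endocrine cells in these falls was not tested. Of 6 adipocyte markers 5 had a probe, and Adipoq, Plin1, Fabp4 and Retn were above background on 0 arrays, while Lep passed the filter and was called in 0 of the 6 comparisons.

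**Figure D3:**
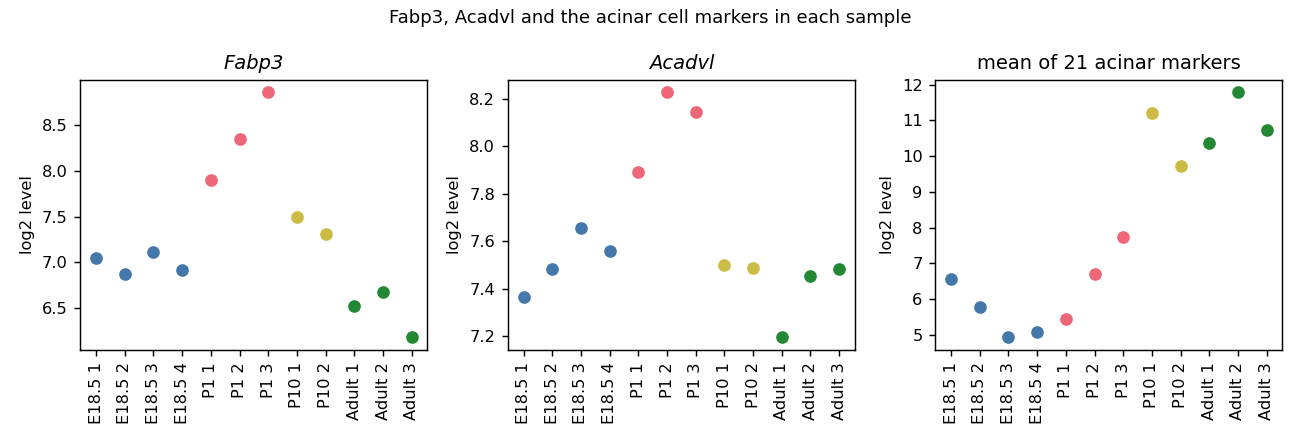
The log2 levels of Fabp3 and Acadvl and the mean log2 level of 21 acinar markers are plotted for each of the 12 samples, coloured by age. Both genes peak in the P1 samples, where the acinar mean lies between 5.44 and 7.73. They are lower at P10 and in adults, where it lies between 9.71 and 11.8. At E18.5, where it lies between 4.93 and 6.56, both genes are also lower than at P1.

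RefSeq gives 1 promoter window for each of the 9 genes on GRCm38.p6, and the 250 bases before the start are shown for the 4 genes that passed the F-test, since these are the ones whose levels moved with age. They are chr4:130308488-130308737 (+ strand) for Fabp3, chr4:107923590-107923839 (- strand) for Cpt2, chr11:70015429-70015678 (- strand) for Acadvl and chr6:5496279-5496528 (- strand) for Pdk4. Each is written 5′ to 3′ on the strand of its gene, and capitals mark AGGTCA on either strand, the core letters bound by nuclear receptors such as the PPARs.
Fabp3: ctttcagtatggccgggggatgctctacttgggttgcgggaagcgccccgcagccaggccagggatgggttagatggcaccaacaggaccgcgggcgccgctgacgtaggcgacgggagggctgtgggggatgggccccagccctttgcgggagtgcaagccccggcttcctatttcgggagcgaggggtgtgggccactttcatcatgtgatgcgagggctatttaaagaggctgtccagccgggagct
Cpt2: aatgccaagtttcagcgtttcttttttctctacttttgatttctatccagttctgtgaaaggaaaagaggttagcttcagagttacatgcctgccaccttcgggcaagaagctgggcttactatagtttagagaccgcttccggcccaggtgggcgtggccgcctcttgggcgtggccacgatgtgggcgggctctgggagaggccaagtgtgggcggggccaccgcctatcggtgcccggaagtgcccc
Acadvl: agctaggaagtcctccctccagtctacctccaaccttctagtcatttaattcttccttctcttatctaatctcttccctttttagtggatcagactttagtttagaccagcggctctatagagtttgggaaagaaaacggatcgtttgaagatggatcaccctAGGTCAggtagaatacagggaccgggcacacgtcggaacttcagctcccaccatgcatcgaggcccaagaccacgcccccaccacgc
Pdk4: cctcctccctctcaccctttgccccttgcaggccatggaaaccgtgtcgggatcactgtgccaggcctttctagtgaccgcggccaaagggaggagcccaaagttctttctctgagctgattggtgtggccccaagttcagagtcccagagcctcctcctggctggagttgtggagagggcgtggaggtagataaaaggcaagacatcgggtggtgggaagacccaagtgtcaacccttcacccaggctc

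Among these 4 windows only that of Acadvl held AGGTCA, 87 bases before the start, and of the other 5 genes Cpt1a and Acadm did. Over the 32851 RefSeq windows of this length, 14% held these letters on either strand, and 0.0335% held 2 copies of AGGTCA in the same direction with 1 letter between them, which 0 of the 9 genes did. The Cpt2 window held GGGCGG at 2 places, 65 and 38 bases before the start, as did 32.7% of all windows at least once. Pdk4 held CCAAT on the opposite strand 131 bases before the start, as did 33.8% of windows on either strand. None of the 9 windows held TATAAA, which 12.4% of windows did. The shares of G and C were 64.8% for Fabp3, 56.8% for Cpt2, 49.6% for Acadvl and 58.8% for Pdk4, against a median of 52.4%. These are matches of letters in a short window and no binding was measured.

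The other genes of the pathway came from 10 lists with 127 genes beside the 9, of which 94 passed the filter. At P1 against E18.5, 3 of the 94 rose, beside 2.38% of all genes, and 2 fell, beside 2.69%. Slc25a20, the carrier that exchanges acylcarnitine for carnitine between Cpt1 and Cpt2, rose by 0.81 ± 0.16 or 1.75-fold (adjusted p = 0.011, limma). Its mean level was 8.11 at P1 and 7.30 at E18.5. Dgat2, which makes triglyceride, rose by 0.80 ± 0.15 (adjusted p = 0.0081, limma). Eci2, an isomerase for unsaturated chains, rose by 0.41 ± 0.11 (adjusted p = 0.040, limma). Elovl6, which lengthens fatty acids, fell by 0.61 ± 0.11 (adjusted p = 0.0080, limma). Oxct1, which activates ketone bodies for burning, fell by 0.58 ± 0.13 (adjusted p = 0.022, limma). Of the lists, beta oxidation had 1 of 14 genes higher and 0 lower, with a median of 0.14, and the carnitine shuttle 1 of 5 higher, also with a median of 0.14. The regulators had 0 of 11 called by limma, with a median of -0.017.

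Eci2 lost its call when any 1 of 9 samples was left out, namely each E18.5, each P1 and each P10 sample (adjusted p from 0.055 to 0.14), with median centring, with the replicate block and with the acinar term. That of Oxct1 ended when E18.5 replicate 4 or P1 replicate 2 or 3 was left out (0.062 to 0.098) and with the acinar term. The Dgat2 difference was 0.51 with an offset of 50.

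At P10 against P1, 8 of the 94 rose, beside 5.17% of all genes, and 6 fell, beside 5.72%. Elovl5, an elongase of polyunsaturated fatty acids, rose by 1.17 ± 0.11 or 2.25-fold (adjusted p = 1.4e-05, limma), with mean levels of 10.1 at P10 and 8.90 at P1. It was the only one of the 14 calls at this step that held with the acinar term, which widened the errors, and it held without each sample in turn. The acinar means of P1 and P10 do not overlap, so that term extends a slope found within ages over a gap without samples. Oxct1 rose by 0.84 ± 0.16 (adjusted p = 0.0031, limma). The remaining rises were smaller, namely Pdp2, a phosphatase that reactivates pyruvate dehydrogenase, at 0.56, the thioesterase gene Acot11 at 0.50, the acetate-activating gene Acss2 at 0.47, the acyl-CoA binding protein gene Dbi at 0.46, Acadsb, a dehydrogenase of short branched chains, at 0.42, and the synthetase gene Acsl3 at 0.42.

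The falls at P10 included 3 of the 9 measured genes of lipid droplets, a list with a median of -0.27. Plin3, which coats lipid droplets, was 1.97-fold lower, a difference of -0.98 ± 0.14 (adjusted p = 0.00054, limma). Dgat2 fell by 0.85 ± 0.17 (adjusted p = 0.0056, limma) and Pnpla2, the first lipase of stored triglyceride, by 0.60 ± 0.16 (adjusted p = 0.022, limma). Acads, the short chain acyl-CoA dehydrogenase, was lower by a difference of -0.64 ± 0.15 (adjusted p = 0.012, limma). Crat, a carnitine acetyltransferase, stood at -0.55 ± 0.12 (adjusted p = 0.010, limma) and Hsd17b4, of peroxisomal oxidation, at -0.55 ± 0.11 (adjusted p = 0.0061, limma).

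Most calls at this step ended when either P10 sample was left out, which leaves 1 sample in that group. The smaller group and the left-out sample's own value were not told apart. Without P10 replicate 1 or 2, Hsd17b4 stood at -0.57 and -0.53, and Acss2 at 0.36 and 0.59. Leaving out P10 replicate 1 ended those of Acads, Acadsb, Acot11, Acsl3, Acss2, Crat, Dbi, Hsd17b4, Oxct1, Pdp2 and Pnpla2 (adjusted p from 0.051 to 0.30). Leaving out P10 replicate 2 ended the same calls apart from Oxct1, and that of Dgat2 (0.055 to 0.24). Without P1 replicate 1 the calls of Acadsb, Acot11, Acsl3, Acss2, Dbi, Pdp2 and Pnpla2 ended (0.064 to 0.13), without P1 replicate 2 these and Acads (0.050 to 0.10), and without P1 replicate 3 Acadsb, Acsl3 and Acss2 (0.087 to 0.12). Acadsb, Acsl3 and Acss2 also ended, 2 at a time, without E18.5 replicates 2, 3 or 4 or adult replicate 2 (0.051 to 0.063). Averaging all probes per gene, Acads, Acot11, Dbi and Pdp2 did not pass (0.067 to 0.52), and Acads stood at -0.42, Acot11 at 0.13 and Pdp2 at 0.37. Acadsb and Acsl3 lost their calls with median centring, without a filter on dim probes and with the replicate block, which also ended that of Acss2, and with only both ages fitted, which also ended that of Dbi (0.052 to 0.079 over these settings). The Acsl3 call also ended where intensities were only logged and with trended and robust variances (both 0.054). With an offset of 50, Dgat2 stood at -0.53, Plin3 at -0.58, Crat at -0.33, Acot11 at 0.33 and Acsl3 at 0.25. With the acinar term, the differences whose calls ended were larger than without it for Plin3 (-1.25), Oxct1 (0.89), Crat (-0.84), Acads (-0.77), Acot11 (0.62), Acadsb (0.60), Pdp2 (0.58) and Acss2 (0.53). They were smaller for Dgat2 (-0.74), Hsd17b4 (-0.51), Acsl3 (0.31), Pnpla2 (-0.28) and Dbi (0.15).

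In adults against P10, 9 of the 94 rose, beside 5.68% of all genes, and 5 fell, beside 6.81%. The peroxisomal genes Acox3, an acyl-CoA oxidase, and Pex11a, which acts in peroxisome division, rose by 0.70 ± 0.13 (adjusted p = 0.0024, limma) and 0.58 ± 0.14 (adjusted p = 0.011, limma), and 0 of that list's 11 genes fell. Acot11 rose again, by 0.70 ± 0.13 (adjusted p = 0.0033, limma). Pparg, a nuclear receptor that drives fat storage, rose by 0.65 ± 0.15 (adjusted p = 0.010, limma), with a dim probe above background on 7 of 12 arrays. Scd1, the stearoyl-CoA desaturase, was above background in 3 of 3 adult and 0 of 2 P10 samples. Its adult level lay at least 1.35-fold above the lowest level above background on the P10 arrays. Scd1 is counted among the 9 on its measured difference of 0.65 ± 0.16 (adjusted p = 0.017, limma). It passed the filter only through the adult samples, where it is high, so this call is no independent support for a rise. The others were the synthetase gene Acsl6 at 0.84, the phosphatidate phosphatase gene Lpin1 at 0.73, Elovl6 at 0.58 and Acadsb at 0.47.

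Among the falls, Lpl, lipoprotein lipase, was lower by a difference of -1.46 ± 0.37, or 2.76-fold (adjusted p = 0.019, limma), and stood at -0.89 without adult replicate 3. The thioesterase gene Acot1 was 2.10-fold lower, a difference of -1.07 ± 0.23 (adjusted p = 0.0065, limma). Eci1 at -0.53, Abhd5, a coactivator of Pnpla2, at -0.47 and Eci2 at -0.43 were lower as well. Leaving out P10 replicate 1 ended the calls of Abhd5, Acadsb, Acot1, Eci1, Eci2, Lpin1, Lpl, Pex11a, Pparg and Scd1 (adjusted p from 0.063 to 0.23), and leaving out P10 replicate 2 those of Abhd5, Acadsb, Acsl6, Eci1, Eci2, Elovl6, Lpin1, Lpl, Pparg and Scd1 (0.070 to 0.28). Among the adult samples, replicate 1 was needed for Acadsb, Acsl6 and Eci2, replicate 2 for Abhd5, Acadsb, Acsl6, Eci1 and Lpin1, and replicate 3 for Abhd5, Acsl6, Eci1, Eci2 and Lpin1 (0.051 to 0.13). Eci2 also ended when E18.5 replicate 2, 3 or 4 or P1 replicate 2 or 3 was left out, Eci1 without E18.5 replicates 3 or 4, and Lpin1 without E18.5 replicate 3 (0.050 to 0.055).

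With only both ages fitted, Abhd5, Acadsb, Eci1, Eci2, Lpin1, Lpl and Scd1 did not pass in adults against P10 (adjusted p from 0.059 to 0.13). The call of Lpin1 also ended with an offset of 50, median centring, the deposited values as log2, the replicate block and the acinar term. Acadsb and Acsl6 ended with median centring, Eci1 with the deposited values as log2 and the block, and Eci2 with the block, array weights and no filter on dim probes. Lpl ended with trended and robust variances, and Abhd5 with the acinar term (0.051 to 0.089 over these settings). With an offset of 50, Pparg stood at 0.35, Acox3 at 0.46, Lpin1 at 0.47 and Scd1 at 0.31.

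**Figure D4:**
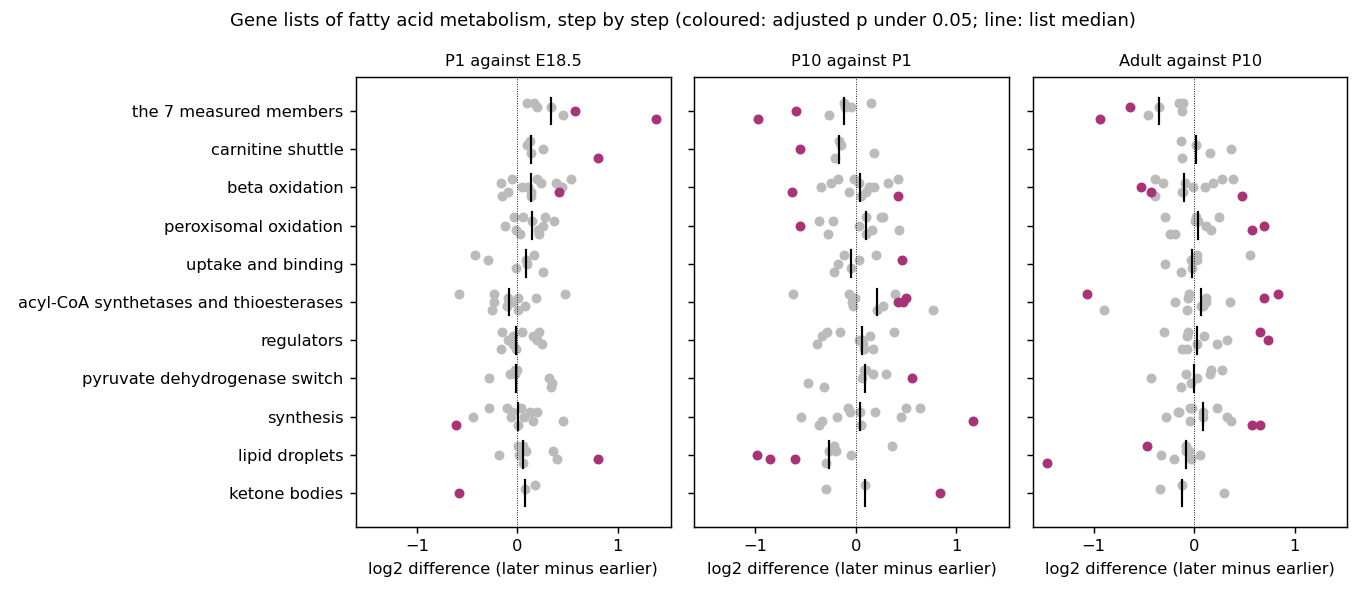
Each row is a gene list of fatty acid metabolism and each point 1 gene, placed by its log2 difference, later minus earlier age, with coloured points for an adjusted p under 0.05 and a line at the list median. At P1 the median of the 7 measured members is 0.34, while those of the other lists lie between -0.085 and 0.15. Members and lists had been chosen with earlier results of these data known.

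Genes whose profile over the 12 samples was most like that of a member were found by the root mean square difference between log2 levels, each centred on its own mean. Genes with clone-like names (Rik, LOC, Gm and a number, or like an accession) were left out of this search. For Fabp3 these were Dynlrb2, Sspn and Iars2, with differences of 0.34 to 0.36 log2 units, beside a standard deviation of Fabp3 itself of 0.74. No other member came as close, the nearest being Acadvl at 0.50. Profiles closest to Cpt2 were those of Slc4a8, Fam163a and Lasp1 (0.13 to 0.14), and to Acadvl those of Rnf145, Bex3 and Plekhf2 (0.12 to 0.14). Pdk4 was matched by Smad1 at 0.091, Leng9 at 0.11 and Mapk15 at 0.12. Among the members, Acadm and Acadl were the closest pair at 0.14, and Cpt2 and Pdk4 followed at 0.17. The distance is not scaled by how much a gene varies, so genes that change little lie close by that alone. Age means of Acadm and Acadl ranged over 0.40 and 0.22 log2 units, beside 0.73 for Cpt2 and 0.75 for Pdk4. Acadl was also close to background. These distances describe the profiles and were not tested.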

How the data were processed

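The authors deposited linear intensity values for 25697 probes, which were used here. Per the labels' protocols, RNA was amplified and biotin-labelled with an Illumina kit. Scanner software and scaling: not given in the sources used here. A table with 24 columns whose names match no sample was not used. The normexp model (offset 16) was fitted to each array's signals, followed by quantile normalization and log2. Above background meant exceeding an array's limit, the upper 0.01 tail of a normal curve around the mode of its signals with the spread below that mode. Probes above background on 2 arrays were kept (14179). The platform table gave 1 symbol for 23978 probes, 0 had several and 1719 are unnamed here, with symbols updated through RefSeq for 23962 gene IDs. The brightest probe stood for a gene.

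Tests used limma 3.58.1 in R 4.3.3 (lmFit and eBayes, all 12 samples, age as factor, Benjamini-Hochberg). On simulated data for P1 against E18.5 they recovered 50% of differences of 0.5 log2 units and 96% of those of 1, with 4 false calls. Differences near 0.5 or smaller can therefore be missed. Members and lists were chosen with earlier results of these data known. The text names all 9 members, the called genes of each list (up to 4 per step) and the 3 nearest profiles per member past the F-test, clone-like names left out. Alternatives covered background, scaling, filter, probe choice, variance model, weights, block, ages fitted, an acinar term and each sample left out. Figures were drawn with matplotlib 3.10.9.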

Additional observations from a re-analysis of the deposited data

How the results depend on the processing

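The number of arrays and dim probes (Acadl, Pdk4, Pparg, Scd1) limit the precision, and P10 rests on 2 samples. Of 3110 values of single genes under another setting, 2884 kept their direction where called and their side of the threshold, 192 no longer passed, 34 newly passed and 0 of those called reversed. The causes were not tested. Where 1 sample is left out, the smaller number of samples and that sample's own value were not told apart.

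With the acinar term, which separates both earlier from both later ages, the F-test called 1263 genes. For P1 against E18.5 it gave 209 genes, 1 member and 1 other fatty acid gene lower. For P10 against P1 it gave 56 genes, 1 member, 1 other gene higher and 0 lower. It called 138 genes and 0 members in adults against E18.5, 33 genes at P10 against E18.5, and 398 genes and 1 member in adults against P1. Array weights gave 941 genes at P1 against E18.5, with 7 other fatty acid genes higher and 4 lower.

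In adults against E18.5, an offset of 50 left 0 members and median centring 4. With only the ages compared, 1 member passed at P10 against E18.5, and in adults against P10 1 member and 1 other gene lower.

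The replicate numbers were not used to pair the samples in the main fits. Deviations from the age means correlated above 0.1 in 4 of 15 pairs with the same number and 6 of 38 with different numbers. The medians were 0.0599 and -0.0314, the lowest -0.0691 and -0.27 and the highest 0.27 and 0.262. These values do not settle whether the numbers mark a pairing. As a replicate block the numbers gave 220 in place of 497 genes at P1 against E18.5. They gave 3 in place of 5 other fatty acid genes lower in adults against P10. Of members, the block ended the call of Fabp3 in adults against E18.5 (adjusted p = 0.054) and brought up that of Cpt2.

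Leaving out 1 sample gave these ranges. P1 against E18.5 had 116 to 589 genes, 1 to 2 members, 2 to 5 other genes higher and 1 to 3 lower. P10 against P1 had 392 to 1177 genes, 0 to 2 members, 1 to 10 other genes higher and 1 to 8 lower. Adults against P10 had 507 to 1281 genes, 0 to 3 members, 3 to 10 other genes higher and 0 to 5 lower. Adults against E18.5 had 0 to 3 members, and P10 against E18.5 657 to 1635 genes. Single samples moved counts of genes by over 1.5 times. P1 against E18.5 had 320, 317 and 216 without E18.5 replicate 2, 3 or 4, and 116 and 278 without P1 replicate 2 or 3. P10 against P1 had 684 without P1 replicate 2, and 392 and 505 without P10 replicate 1 or 2. Without the same P10 samples, adults against P10 had 636 and 507, and P10 against E18.5 657 and 664.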
